A study of Mus musculus with 16 samples.

Results

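The alpha-defensin genes of the mouse ileum were taken as all genes whose symbol is Defa followed by a digit, the symbol being the transcript name without its last hyphenated part. This rule gave 28 of the 23299 genes of the deposited expression table and 29 of its 59258 transcripts, since Defa27 alone has 2 transcripts. The study asked how the sweet and umami taste receptor subunit TAS1R3 bears on the intestinal response to a Western diet (WD). RNA from the terminal ileum of C57BL/6 mice was sequenced on the Ion Proton platform after 10 weeks on either a normal diet (ND) with plain water or the WD, in which a 60% high-fat diet was given together with a 30% sugar solution. WT mice and Tas1r3-/- mice, which carry the whole-body null allele Tas1r3tm1Csz backcrossed to C57BL/6, were 5 to 6 weeks old at the start, with both sexes in each group. The groups are called WT-ND, KO-ND, WT-WD and KO-WD, KO being Tas1r3-/-. The labels name 16 samples, with 2 males and 2 females in each group. The 2 KO-ND female columns hold weighted means of the 2 KO-ND male columns and were left out, and the 2 KO-WD female columns, of which the second has, for most transcripts, the digits of a mean of the first and another value, were averaged into 1. This left 13 libraries: 4 of WT-ND, 2 of KO-ND, both male, 4 of WT-WD and 3 of KO-WD. Values are given below in the order male 1, male 2, female 1, female 2, with males 1 and 2 for KO-ND, and males 1 and 2 and the averaged female value for KO-WD.

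Alpha-defensins, called cryptdins in the mouse intestine, are small cationic peptides held together by disulphide bonds between conserved cysteines. Paneth cells at the base of small intestinal crypts pack them into granules as part of larger precursors, and in the mouse the matrix metalloproteinase MMP7 cleaves the precursors into active peptides. The peptides are released into the crypt lumen, where they kill or restrain bacteria and shape the gut microbiota. Their genes lie in a cluster of recent duplicates, and Wnt signalling through TCF7L2 is known to sustain both the Paneth cell and its defensin genes. The ileum is the part of the mouse gut where Paneth cell products are most abundant.

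The expression values are given as RPKM, a unit in which reads are divided by transcript length and library depth, so levels may be compared between genes of 1 library. Their total was 817011 to 819916 in the ND libraries and 542371 to 672933 in the WD libraries. Whether both diets share 1 unit was not settled. The values were divided by 1 scaling factor per library before testing ("scaled RPKM"), and every difference is on the log2 scale of scaled RPKM plus 0.5. Differences were tested with limma over 19042 genes, and all 28 members were among them. Tas1r3 was at 1.80, 1.87, 2.95 and 2.06 RPKM in WT-ND, at 6.27, 5.11, 4.23 and 4.21 in WT-WD, and at 0.000726 to 0.00452 in the 5 KO libraries; its values in WT-ND males 1 and 2 and WT-WD female 2 have more digits than the table's usual 6. The values imply 7058610 to 12411629 reads per library in transcripts of known length, of which the family took 202606 to 1263171. Of 377 member values, 365 correspond to at least 100 reads, so for these counting error is small beside the spread between mice. The distal enterocyte list (Fabp6, Slc10a2, Slc51a, Slc51b and Fgf15) summed to 785 to 7962 RPKM and the colon epithelium list to 37.3 to 413, and all 12 Paneth cell markers were measured in every group. The table writes nearly all values with at most 6 significant digits, but 182 of 770354 have more. Of these, 34 are alpha-defensin values, which is 9.02% of the family's values against 0.0192% of all others. All 34 are in WD-fed libraries, 15 of them in WT-WD and 19 in KO-WD, and they touch 23 of the 29 transcripts. Why they differ was not tested, so results on the WD are also given for the 6 members without such a value: Defa2, Defa29, Defa30, Defa34, Defa42 and Defa43.

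All members lie in 1 cluster on chromosome 8, spanning chr8:21025545-21735471 (GRCm38), 23 on the forward strand and 5 on the reverse strand. The table's Defa38 to Defa43 carry the names Gm14851, AY761184, Gm15292, Gm15293, Gm7849 and Gm7861 in the GENCODE annotation used for sequences. Coding sequences of 279 to 351 bases were 64.1% to 100% identical over the 378 pairs, with a median of 83.3%. Of the 28 members, 20 have another member at least 98% identical to them, and 6 pairs have the same coding sequence: Defa23 and Defa31, Defa3 and Defa17, Defa2 and Defa33, Defa36 and Defa37, Defa42 and Defa43, and Defa20 and Defa32. Reads from such copies cannot be assigned with certainty, so the levels of single members are uncertain where the sum over copies is not.

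Average-linkage grouping of the coding sequences at 90% identity, which used no expression value, split the family into 4 groups. Group A holds 11 genes (Defa3, Defa17, Defa23 to Defa28, Defa30, Defa31 and Defa40), group B 6 genes (Defa2, Defa20, Defa21, Defa22, Defa32 and Defa33), group C 6 genes (Defa5, Defa34 to Defa37 and Defa41) and group D 5 genes (Defa29, Defa38, Defa39, Defa42 and Defa43). The last 40 codons are the end of the precursor, where the mature peptide of the cryptdins lies. They are printed 5′ to 3′ from the coding strand, with cysteine codons in capitals, for the members that lead each group in level and for Defa27, whose values differ most between genotypes; Defa20 has the same 120 bases as Defa2.
Defa24 (group A, chr8:21734494-21735471, forward strand): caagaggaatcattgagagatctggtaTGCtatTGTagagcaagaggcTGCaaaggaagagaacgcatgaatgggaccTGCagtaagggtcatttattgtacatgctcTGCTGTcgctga
Defa30 (group A, chr8:21134642-21135598, forward strand): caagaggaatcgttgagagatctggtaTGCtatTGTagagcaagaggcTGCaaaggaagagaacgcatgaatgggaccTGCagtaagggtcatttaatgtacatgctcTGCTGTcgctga
Defa27 (group A, chr8:21315546-21316481, forward strand): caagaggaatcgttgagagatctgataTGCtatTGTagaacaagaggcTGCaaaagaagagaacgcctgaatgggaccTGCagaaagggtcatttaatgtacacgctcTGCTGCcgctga
Defa2 (group B, chr8:21378515-21379495, forward strand): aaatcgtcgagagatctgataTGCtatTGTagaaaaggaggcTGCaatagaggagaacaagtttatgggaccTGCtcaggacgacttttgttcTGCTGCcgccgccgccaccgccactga
Defa5 (group C, chr8:21297439-21298375, forward strand): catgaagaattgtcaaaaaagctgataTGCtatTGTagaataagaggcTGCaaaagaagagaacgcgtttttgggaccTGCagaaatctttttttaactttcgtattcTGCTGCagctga
Defa43 (group D, chr8:21593375-21594508, reverse strand): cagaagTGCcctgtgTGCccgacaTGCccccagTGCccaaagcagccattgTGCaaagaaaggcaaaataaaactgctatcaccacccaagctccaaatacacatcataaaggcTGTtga
Members of groups A, B and C have 6 or 7 cysteine codons in the whole coding sequence, whereas all 5 members of group D have 11. The printed stretch of Defa43 holds 6 of its 11, so it leaves out part of the cysteine-rich region. Group D members have the longest coding sequence, 351 bases, and are the 5 members on the reverse strand.

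The promoters were searched for ATCAAAG, a core motif of TCF/LEF factors, on both strands (its reverse complement is CTTTGAT). Of the 16 members with a RefSeq promoter (GRCm38.p6, 250 bases before to 50 after the start), 13 hold the motif, each time in the forward orientation, against 1225 of 32851 promoters in all (3.73%). The 3 without these letters are Defa38, Defa42 and Defa43 of group D. The 180 bases from 165 before the start to 15 after it are shown for a group B and a group A member, with the motif in capitals, because the ratio of these members is followed across mice below.
Defa2 promoter (within chr8:21378267-21378566, forward strand): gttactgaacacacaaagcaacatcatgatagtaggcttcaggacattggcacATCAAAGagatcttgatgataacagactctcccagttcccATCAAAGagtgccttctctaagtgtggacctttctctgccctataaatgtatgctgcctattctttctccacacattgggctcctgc
Defa30 promoter (within chr8:21134400-21134699, forward strand): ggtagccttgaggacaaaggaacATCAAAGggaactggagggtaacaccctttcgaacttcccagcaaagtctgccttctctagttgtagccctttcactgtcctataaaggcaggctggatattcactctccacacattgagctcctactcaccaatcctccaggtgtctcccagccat
Defa2 has 2 copies, beginning 112 and 72 bases before the start, whereas Defa30 has 1, beginning 142 bases before it. A match is a description of the letters and not of binding.

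The family made up a large part of the expression table. Summed over its members, it reached 146924, 141155, 62266 and 51770.3 RPKM in WT-ND, 249237 and 150011 in KO-ND, 51004, 50145, 47863 and 50221 in WT-WD and 167607, 135914 and 115500.3 in KO-WD. This was 17.9, 17.2, 7.62 and 6.33% of all RPKM in WT-ND, 30.4 and 18.3% in KO-ND, 9.40, 9.05, 7.88 and 8.42% in WT-WD and 27.1, 22.1 and 17.2% in KO-WD. All 3 KO-WD libraries were above all 4 WT-WD libraries. Among ND-fed mice, the WT males were well above the WT females, and the lower KO-ND library was close to the WT-ND males. Defa24 alone made up 15.2% of the family's mean level, followed by Defa2 (9.35%), Defa20 (8.65%), Defa33 (7.87%) and Defa30 (7.72%), and no member was at 0 in any library.

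**Figure D1:**
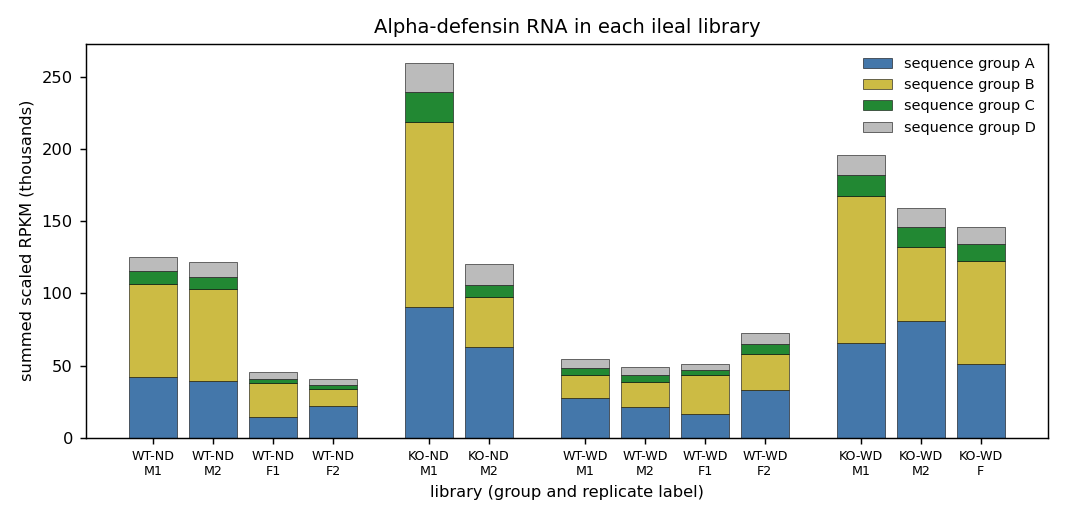
Stacked bars of summed scaled RPKM for the 28 alpha-defensin genes in each of the 13 libraries, coloured by sequence group A to D. The KO-WD libraries sit between 146196 and 195933, all above the WT-WD libraries at 49269 to 72709, whereas the WT-ND males and females are far apart.

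On the WD, alpha-defensin transcripts were higher without Tas1r3. The scaled family sum was 167068 ± 25814 (SD, n = 3) in KO-WD and 56780 ± 10816 (SD, n = 4) in WT-WD, a 2.96-fold difference (log2 1.56, against a pooled SD of 0.24) between groups that did not overlap. All 28 members were higher in KO-WD, by a median of 1.52 and a range of 0.88 to 4.81, where the median over all genes tested was -0.035. Every member had an unadjusted limma p under 0.05 on the higher side, a level reached by 1.41% of all genes, and every member's libraries were separated between the groups, as in 1.38% of all genes. None passed the threshold of an adjusted p under 0.01 with a fold change of at least 2 (0 of 28, against 0.0105% of all genes, 2 genes in all), the lowest adjusted p of a member being 0.163. In the exact two-sided permutation test over libraries, 21 members reached 0.0286, the smallest p that 4 against 3 libraries allow, and none exceeded 0.0571. Since nearly identical copies share reads and all members come from the same cells and libraries, the 28 results are not independent of each other. The 6 members without a value of more than 6 digits differed by 1.06 to 1.79, with 6 of 6 separated and 6 of 6 at an unadjusted limma p under 0.05. Having at most 6 digits does not show that their values are regular. Defa42 and Defa43 have the same coding sequence, but their ratio spanned 0.692 to 1.81. It was highest in WT-WD male 2 (1836 and 1015 RPKM) and lowest in the KO-WD female (2455 and 3547). These libraries hold 10 and 11 of the family's values of more than 6 digits.

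**Figure D2:**
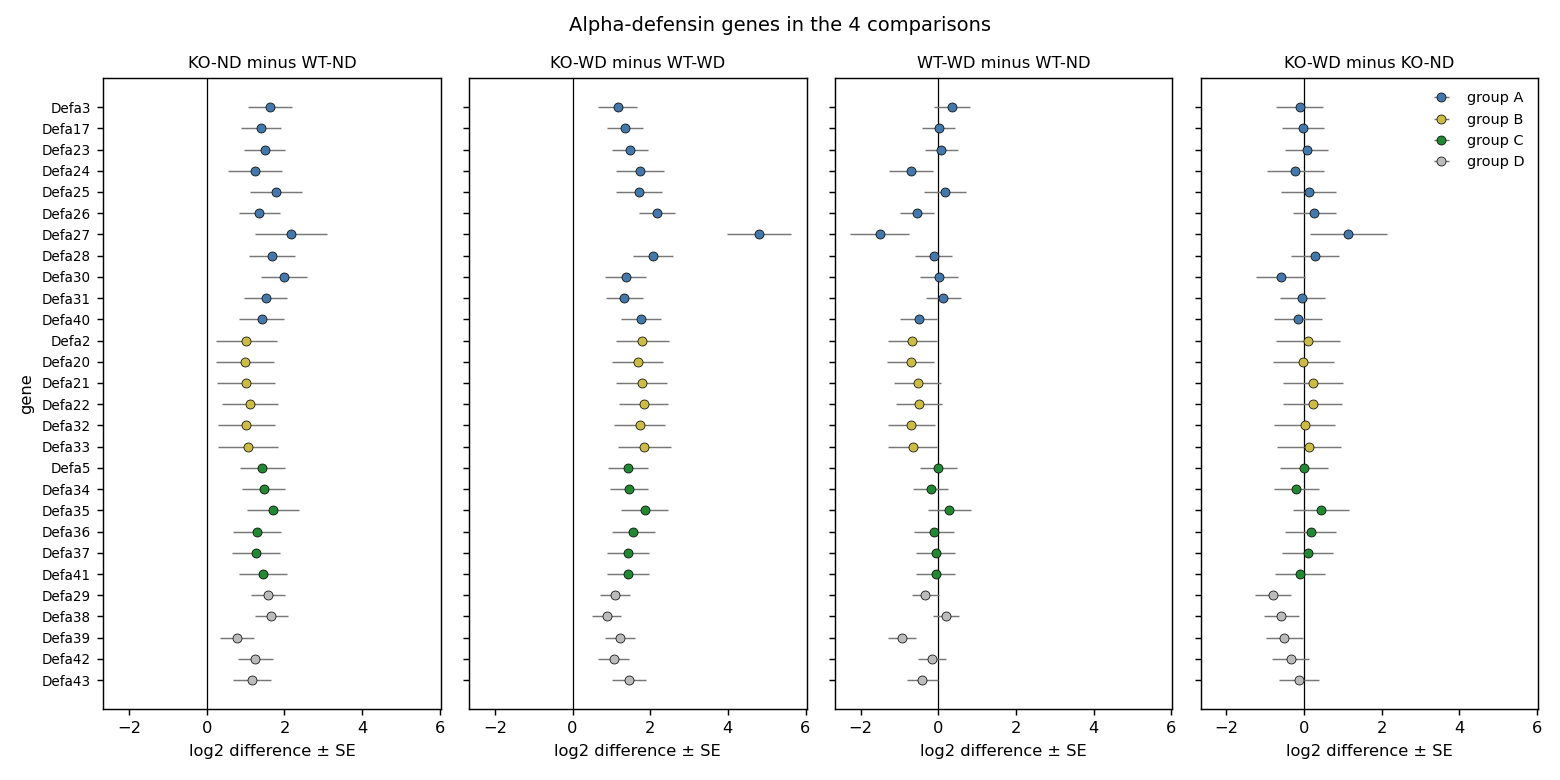
Log2 difference with its standard error (limma) for each of the 28 genes, ordered by sequence group, in the 4 comparisons of genotype and diet. Both genotype comparisons lie above 0 for all members, and Defa27 at 4.81 in KO-WD minus WT-WD stands far from the rest, whereas the diet comparisons scatter around 0.

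Group A includes the most abundant member and the largest differences, 1.16 to 4.81 over its 11 genes. Defa24 was at 6921, 3639, 6962 and 9509 RPKM in WT-WD and 23699.7, 23842 and 14107 in KO-WD. Defa30 was at 6204, 5451, 2296 and 3183 RPKM in WT-WD and 7705, 13583 and 8450.1 in KO-WD. In both, the lowest KO-WD library was above the highest WT-WD library, and the log2 differences were 1.74 (SE 0.61) for Defa24 and 1.37 (SE 0.52) for Defa30. The identical copies Defa17 and Defa3 were lower in level: Defa17 had 3595, 3430.1, 1966 and 2999 RPKM in WT-WD and 7372, 8151 and 5721 in KO-WD. Defa3 had 3178, 3462, 1271 and 2765 RPKM in WT-WD and 4956, 6881 and 4177 in KO-WD, with WT-WD female 1 well below the other WT-WD libraries. For Defa23 the values were 2787, 2642, 1254 and 1659 RPKM in WT-WD and 5498, 6696 and 3769 in KO-WD, a 2.79-fold difference. Rarer transcripts of group A were at much lower levels than Defa24. Defa26 had 97.0, 105, 65.3 and 97.2 RPKM in WT-WD and 403, 461 and 296 in KO-WD, a difference of 2.17 (SE 0.47). Defa28 had 66.6, 73.6, 17.7 and 35.5 RPKM in WT-WD and 166, 236 and 116 in KO-WD, a difference of 2.06 (SE 0.52). Defa40 had 160.4, 165, 37.7 and 107 RPKM in WT-WD and 235, 473 and 314 in KO-WD, a difference of 1.77 (SE 0.52), and again its WT-WD female 1 was the lowest. Defa27 is described separately below.

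Group B, whose 6 genes include 4 of the 6 most abundant members, differed evenly, by 1.68 to 1.84. Defa2 was at 3047, 3660, 5833 and 3405 RPKM in WT-WD and 19139, 8228 and 12567 in KO-WD. Its identical copy Defa33 was at 2546, 2980.3, 4646 and 2953 RPKM in WT-WD and 16431, 7021 and 10783 in KO-WD. The Defa2 difference was 3.47-fold (log2 1.79, SE 0.68) and, within KO-WD, male 1 was the highest and male 2 the lowest. Defa20 followed Defa2 closely, at 2963, 3503, 5274 and 3309 RPKM in WT-WD and 16620.5, 7397 and 10854 in KO-WD. Its copy Defa32 had 2527, 2799, 3919 and 2812 RPKM in WT-WD and 13922, 6113 and 9319.9 in KO-WD. In these 4 genes the same library, female 1, was the highest of WT-WD and male 2 the lowest of KO-WD. Defa21 had 2104, 2395, 2895 and 2633 RPKM in WT-WD and 10668, 7641 and 6312 in KO-WD, and Defa22 had 2011, 2197, 3063 and 2509 against 10464, 7755 and 6397, the averaged female library here being the lowest of KO-WD.

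In group C, the 6 genes differed by 1.42 to 1.85. Defa35, its rarest member after Defa41, was at 615, 679, 122 and 391 RPKM in WT-WD and 1333, 1807 and 860 in KO-WD, a difference of 1.85 (SE 0.60). Defa35 rests on values of more than 6 digits in several libraries: with those missing, 2 WT-WD and 1 KO-WD libraries remained. The cysteine-rich group D had the smallest differences, 0.88 to 1.45. Defa43 was at 1623, 1015, 1271 and 1806 RPKM in WT-WD and 3791, 3374 and 3547 in KO-WD, a difference of 1.45 (SE 0.43). None of these values has more than 6 digits. Its identical copy Defa42 was at 1333, 1836, 1167 and 1701 RPKM in WT-WD and 3486, 2867 and 2455 in KO-WD. Defa39 had 389, 389, 435 and 338 RPKM in WT-WD and 938, 942 and 689 in KO-WD, a 2.34-fold difference, the values of WT-WD males 1 and 2 having more than 6 digits. Defa29 was at 1027, 1149, 489 and 449 RPKM in WT-WD and 1459, 1698 and 1187 in KO-WD, and Defa38 at 1318, 1509, 705 and 1294 against 2080.3, 2222 and 1739.8, in both cases with the lowest KO-WD library above the highest WT-WD library by less than the range of WT-WD. As a share of the family, group D made up 8.50 to 11.8% in WT-WD and 7.01 to 8.33% in KO-WD, groups that did not overlap. The shares of groups A, B and C overlapped between WT-WD and KO-WD.

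On the ND, the direction was the same but the groups were less separated. The scaled family sum was 190161 ± 98902 (SD, n = 2) in KO-ND and 83564 ± 46515 (SD, n = 4) in WT-ND, a 2.42-fold difference (log2 1.27) with overlapping libraries; as deposited, without scaling, the lower KO-ND library (150011 RPKM) was just above the highest WT-ND library (146924 RPKM). All 28 members were higher in KO-ND, by a median of 1.40 (0.79 to 2.16; 0.016 over all genes). An unadjusted limma p under 0.05 was reached by 18 of 28 on the higher side, against 2.15% of all genes, and 14 of 28 had groups that did not overlap, against 8.83%. No member was called (0 of 28, against 0% of all genes), with an adjusted p of 0.891 for each. With 4 against 2 libraries the exact permutation test cannot go below 0.0667, which Defa30 and Defa38 reached. Both KO-ND libraries are male, so sex and genotype cannot be told apart against the WT-ND females; within males, 16 of 28 members were separated and higher in KO-ND, against 23.8% of all genes, and the family difference was 0.52. Without KO-ND male 1, 4 of 28 members were higher at an unadjusted limma p under 0.05, against 1.5% of all genes, and without WT-ND female 1, 10 of 28, against 1.9%. Without KO-ND male 2, 27 of 28 were higher and did not overlap, against 19% of all genes in that setting.

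The sequence groups were not alike on the ND. In group A, 10 of 11 members reached an unadjusted limma p under 0.05 and 8 were separated. Defa30 was at 6930, 6647, 2498 and 7569 RPKM in WT-ND and 15575 and 23552 in KO-ND, a difference of 1.99 (SE 0.59), with WT-ND female 1 far below the other 3. Defa24 was at 21296, 23379.7, 9346 and 9680.1 RPKM in WT-ND and 38658 and 24306 in KO-ND, where KO-ND male 2 was close to the WT-ND males. Defa17 had 7007, 4964, 2741 and 2718 RPKM in WT-ND and 10211 and 8610.4 in KO-ND. Defa3 had 4662, 3532, 1458 and 2233 RPKM in WT-ND and 6949 and 7889.6 in KO-ND. In these identical copies both KO-ND libraries were above all WT-ND libraries. Defa23 had 4196, 3319, 1457 and 2257 RPKM in WT-ND and 7244 and 5803 in KO-ND, and Defa26 had 357, 294, 109 and 97.8 against 456 and 377. Of the rarer members, Defa28 was at 102, 89.2, 28.3 and 61.5 RPKM in WT-ND and 160 and 202 in KO-ND. Defa40 was at 344, 239, 123 and 163 RPKM in WT-ND and 479.7 and 468 in KO-ND, the KO-ND pair being nearly equal. In group B, 0 of 6 reached an unadjusted p under 0.05 and 0 of 6 were separated, with differences of 0.99 to 1.11. Defa2 had 15387, 15794, 7057 and 3081 RPKM in WT-ND and 26809 and 8759 in KO-ND, so KO-ND male 2 lay between the WT-ND males and females. Defa33 had 13382, 13942, 5166 and 2513 RPKM in WT-ND and 21596 and 7712 in KO-ND. Defa20 had 14958, 14557, 7155 and 3077 RPKM in WT-ND and 24341 and 8815 in KO-ND. Defa32 had 12853, 12603, 5070.2 and 2437 RPKM in WT-ND and 18936 and 7622 in KO-ND. In all 4, KO-ND male 1 was the highest and WT-ND female 2 the lowest of the ND-fed libraries. Defa21 had 9758, 8816, 4375 and 1662 RPKM in WT-ND and 15407 and 5158 in KO-ND, and Defa22 had 9269, 8082, 3838 and 1737 against 15638 and 5213. The difference between the sequence groups in their genotype difference was not tested.

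In group C, 4 of 6 members reached an unadjusted limma p under 0.05 and 2 were separated. Defa35 of group C had 634, 651, 190.5 and 429 RPKM in WT-ND and 1155 and 1317 in KO-ND, both KO-ND libraries being higher than all WT-ND libraries. Of the 5 group D members, 4 were separated. Defa38 was at 1799.7, 1746, 943 and 1315 RPKM in WT-ND and 3484 and 4449 in KO-ND, a difference of 1.66 (SE 0.42). Defa29 was at 1633, 1801, 835 and 987 RPKM in WT-ND and 3096 and 3468 in KO-ND, a difference of 1.57 (SE 0.44), with both KO-ND libraries far above the highest WT-ND library. Defa43 had 3539.7, 3626, 2215 and 1564 RPKM in WT-ND and 5854 and 4421 in KO-ND. Defa39 had 1232, 1657, 1141 and 489 RPKM in WT-ND and 1909 and 1302 in KO-ND, the only group D member with overlapping libraries. These ND values have at most 6 digits throughout.

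In WT mice, the diet difference of the family was negative in males, and in females its direction turned with the scaling. With sexes pooled, the scaled family sum differed by -0.38 (WT-WD minus WT-ND, log2), with overlapping libraries. As deposited, without scaling, it differed by -0.86, and the highest WT-WD library (51004 RPKM) was below the lowest WT-ND library (51770 RPKM). The RPKM total of all transcripts was also lower, at 542371 to 607087 in WT-WD against 817011 to 819374 in WT-ND. A diet difference as deposited cannot be told apart from this difference in total. As a share of the RPKM total the groups overlapped, at 7.88 to 9.40% in WT-WD and 6.33 to 17.9% in WT-ND. After scaling, the members differed by a median of -0.17 (-1.51 to 0.36; 0.032 over all genes). On the lower side, 1 of 28 members had an unadjusted limma p under 0.05, Defa39 at -0.94 (SE 0.36), against 8.09% of all genes. Its values in WT-WD males 1 and 2 have more than 6 digits. With such values missing it differed by -0.85 (unadjusted limma p 0.10, 2 WT-WD libraries). In that fit the 6 members without such values differed by -0.69 (Defa2) to -0.004 (Defa30), the lowest unadjusted limma p being 0.29. In all, 0 of 28 were separated, against 5.96%, and 0 of 28 were called, against 0.00525%. In males alone, the scaled family sum differed by -1.26 (-1.51 as deposited), and 22 of 28 members were lower and separated, against 27.8% of all genes with 2 libraries a group. Of the 29 transcripts, 10 have a value of more than 6 digits in WT-WD male 2 and 1 in WT-WD male 1. In females alone it differed by 0.49 after scaling and by -0.21 as deposited. In WT-ND, the male sum was 2.86-fold the female sum (log2 1.52), and 21 of 28 members were higher in males at an unadjusted limma p under 0.05, against 3.37% of all genes. In WT-WD the male minus female difference of the sum was -0.24. When the diet difference of WT males was contrasted with that of WT females in 1 fit, 13 of 28 members had an unadjusted p under 0.05 on the lower side, against 3.32% of all genes, with a median of -1.34, and no adjusted p was below 0.98. Each sex holds 2 libraries a group, and cage, litter or position along the ileum were not labelled.

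Between WT-WD and KO-WD, the separation held within males: 28 of 28 members were higher in KO-WD and separated, against 15.2% of all genes, and the averaged female KO-WD value gave a family difference of 1.26 over the WT-WD females.

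In Tas1r3-/- mice, the scaled KO-WD family sums lay between those of the 2 KO-ND libraries. The sum differed by -0.09 (KO-WD minus KO-ND, log2), from -0.65 to 0.48 depending on which KO-ND library was left out, and the members by a median of -0.01 (-0.80 to 1.14). No member had an unadjusted limma p under 0.05 in either direction (0 of 28, against 5.65% of all genes), and none was called (0 of 28, against 0%). On the lower side, 3 of 28 had groups that did not overlap, Defa29, Defa30 and Defa38, against 10.5% of all genes; without KO-ND male 1, 19 did not overlap in either direction, against 38.4% of all genes, without KO-ND male 2, 20, against 40.5%, and without the KO-WD female, 5, against 44.8%. Defa29 was at 3096 and 3468 in KO-ND and 1459, 1698 and 1187 in KO-WD, and Defa38 at 3484 and 4449 and 2080.3, 2222 and 1739.8. For both, the KO-ND libraries were above all others of the study. With values of more than 6 digits missing, the 6 members without such a value differed by -0.78 (Defa29) to 0.13 (Defa2). The interaction, the genotype difference on the WD minus that on the ND, was 0.22 at the median member (-0.78 to 2.65), with 0 of 28 at an unadjusted p under 0.05 (1.43% of all genes) and 0 of 28 called (0%). The 2 genotype differences share no libraries, but their difference was not detectable with 2 KO-ND libraries.

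The balance between the sequence groups varied from mouse to mouse within every group. The ratio of group A to group B, as summed RPKM, was 0.649, 0.621, 0.590 and 1.91 in WT-ND, 0.709 and 1.82 in KO-ND, 1.70, 1.23, 0.588 and 1.28 in WT-WD and 0.645, 1.56 and 0.719 in KO-WD. No library lay between 0.72 and 1.23: 7 had 0.59 to 0.72 and 6 had 1.23 to 1.91, and each of the 4 groups had libraries of both kinds. The ratio of Defa2 to Defa30, the members whose promoters are printed above, was 2.22, 2.38, 2.82 and 0.407 in WT-ND, 1.72 and 0.372 in KO-ND, 0.491, 0.671, 2.54 and 1.07 in WT-WD and 2.48, 0.606 and 1.49 in KO-WD. Each group thus spanned both balances, including the WT-ND females, which differed from each other. Over the 13 libraries, which share depth and scaling, the median Pearson r between 2 group B members was 0.98 and between a group A and a group B member 0.65; pairs with the same coding sequence had 0.93 to 1.00.

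**Figure D3:**
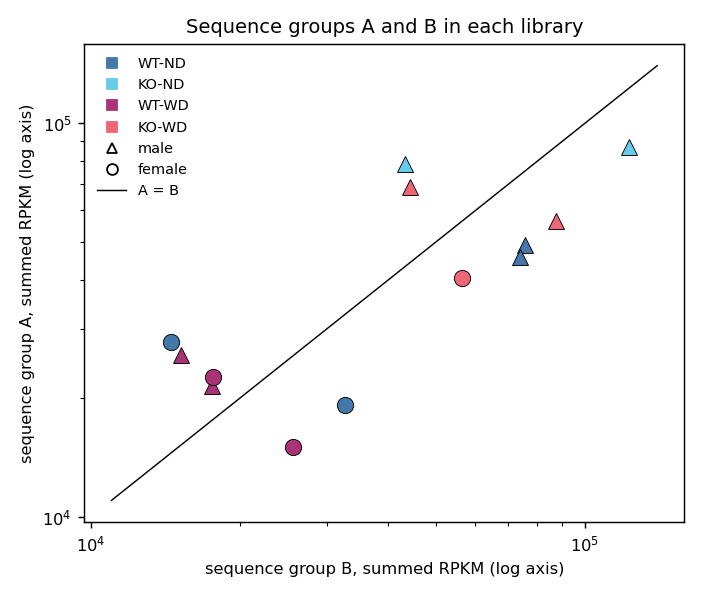
Summed RPKM of the 11 group A genes against that of the 6 group B genes in each of the 13 libraries, on log axes, with the line of equality; colour marks the group and shape the sex. Libraries fall on both sides of the line within every group, at ratios of 0.59 to 0.72 or 1.23 to 1.91.

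Defa27, a group A member that encodes an alpha-defensin precursor like its neighbours, had the largest difference between genotypes on the WD. It was at 32.5, 28.3, 23.5 and 33.7 RPKM in WT-WD and 679, 1428 and 489 in KO-WD, a 28.0-fold difference (log2 4.81, SE 0.82, exact permutation p = 0.0286). In the limma fit across all genes its unadjusted p was 6.7e-05 and its adjusted p 0.163, and it was the 1 member called when the 2 WD-fed groups were fitted alone and when libraries were weighted by quality. On the ND it was at 115, 114, 27.5 and 505 RPKM in WT-ND and 166 and 1299 in KO-ND, so that 1 WT-ND female exceeded KO-ND male 1. Its 2 transcripts differed. Defa27-201 had 65.2, 72.4, 1.47 and 0.361 in WT-ND, 72.7 and 3.64 in KO-ND, 2.80, 1.62, 6.41 and 0.605 in WT-WD, and 83.6, 42.5 and 60.3 in KO-WD. Its lowest values rest on few reads, about 1.18 in WT-ND female 2 and 2.35 in WT-WD female 2. Defa27-202 had 49.4, 41.9, 26.1 and 505 in WT-ND, 92.9 and 1295 in KO-ND, 29.7, 26.7, 17.1 and 33.1 in WT-WD, and 596, 1385 and 429 in KO-WD. Defa27-202 was thus at 429 RPKM or more in 5 libraries and at 92.9 or less in the other 8. Of these values, the 596 of KO-WD male 1 has more than 6 digits. Some values of Defa27 in the WD-fed libraries have more than 6 digits; with those missing, 3 WT-WD libraries and the KO-WD female remained and the difference was 4.21, a value that rests on 1 KO-WD library. The nearby gene AY761185 (chr8:20943694-20944710, reverse strand), an alpha-defensin-like gene outside the naming rule, was also high in some libraries and nearly absent in others, with no value of more than 6 digits: 0.728, 1.86, 0 and 257 in WT-ND, 0.555 and 545 in KO-ND, 0.790, 0.531, 1.33 and 438 in WT-WD and 0.635, 249.8 and 316 in KO-WD. It was at 249.8 RPKM or more in 5 libraries, among them WT-WD female 2, where Defa27-202 was at 33.1. In the other 8 it was at 1.86 or less, among them KO-WD male 1, where Defa27-202 had the value of more than 6 digits, 596.

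**Figure D4:**
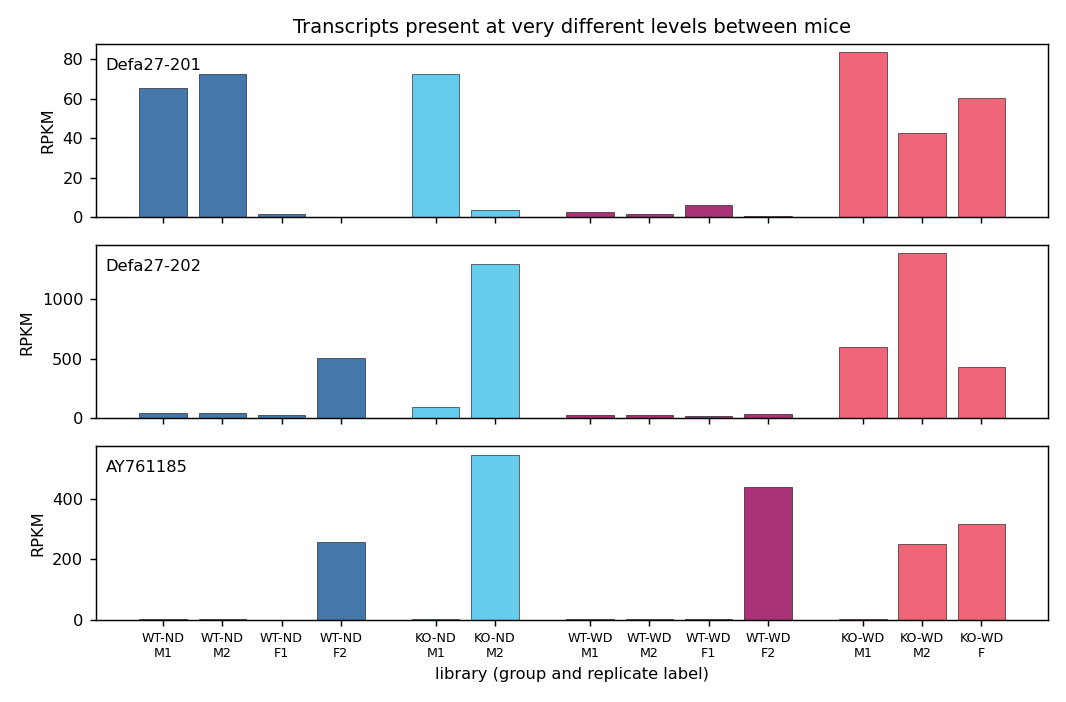
Bars of RPKM in each of the 13 libraries for Defa27-201, Defa27-202 and AY761185, 1 panel each with its own axis from 0, coloured by group. Defa27-202 stands at 429 or more in WT-ND female 2, KO-ND male 2 and the 3 KO-WD libraries, and AY761185 at 249.8 or more in 5 libraries.

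The 9 Defa-ps pseudogenes of the table, none of whose 117 values has more than 6 digits, summed to 975, 909.6, 266 and 454 RPKM in WT-ND, 1545 and 2426 in KO-ND, 541, 733, 129.9 and 564 in WT-WD, and 767, 2010.2 and 455 in KO-WD. All 9 were higher in KO-WD than in WT-WD in the fit, by 0.88 to 1.72. However, 2 of 9 had an unadjusted limma p under 0.05, against 1.41% of all genes on the higher side. In all, 0 of 9 were separated, against 1.38%, and the KO-WD female sum lay within the WT-WD range. Their lower sum in this library, which holds 11 of the family's 34 values of more than 6 digits, thus went against the members, whose KO-WD female values were above all of WT-WD; the cause was not tested. On the ND all 9 were higher in KO-ND, by 0.80 to 2.51. An unadjusted limma p under 0.05 was reached by 5 of 9, against 2.15% of all genes, and 7 of 9 were separated, against 8.83%.

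Some other products of the Paneth cell were also higher in KO-WD than in WT-WD. The 12 other Paneth cell markers summed to 2706 to 4342 RPKM in WT-WD and 6568 to 10461 in KO-WD, and, overlapping, to 3115 to 11026 in WT-ND and 8229 to 12477 in KO-ND. On the WD, 3 of 12 were higher in KO-WD at an unadjusted limma p under 0.05 (1.41% of all genes) and 4 of 12 were higher and separated (1.38% of all genes), with a median of 0.69. On the ND the counts were 4 (2.15% of all genes) and 3 (8.83%), with a median of 1.17. None was called. In bulk tissue, fewer Paneth cells and less RNA per cell cannot be told apart. Lyz1, the Paneth cell lysozyme, was at 1105, 1470, 1401 and 2191 RPKM in WT-WD and 5415, 5466 and 4656 in KO-WD, a difference of 1.88 (SE 0.53) with separated groups; the KO-WD female value has more than 6 digits, as do 1 KO-WD value each of Lyz2, Mptx1 and Mptx2. Pla2g2a, a phospholipase gene on the Paneth cell list, was at 59.4, 71.5, 25.2 and 58.9 RPKM in WT-WD. In KO-WD it was at 148, 171 and 73.9, a difference of 1.38 (SE 0.38), also separated. Whether active protein was made was not measured. Mmp7, the protease that activates the precursors, was at 102, 112, 57.1 and 91.7 RPKM in WT-WD and 121, 186 and 109.6 in KO-WD, a difference of 0.71 (SE 0.42). Its lowest KO-WD library was just below the highest WT-WD library as deposited, and just above it when scaled. On the ND, Lyz1 was at 6345, 5983, 2346 and 1808 RPKM in WT-ND and 5514 and 4611 in KO-ND, and Mmp7 at 266, 137, 81.9 and 88.4 RPKM in WT-ND and 270.3 and 225 in KO-ND, with differences of 0.68 and 1.12, and Lyz1 was higher in both WT-ND males than in both KO-ND libraries. The ratio of the family sum to Lyz1 was 46.2, 34.1, 34.2 and 22.9 in WT-WD and 31.0, 24.9 and 24.8 in KO-WD, and to the 12 markers together 12.1, 11.5, 17.7 and 13.4 and 17.1, 12.99 and 17.6, so on the WD the groups overlapped relative to these markers. On the ND the ratio to Lyz1 was 23.2, 23.6, 26.5 and 28.6 in WT-ND and 45.2 and 32.5 in KO-ND, and to the 12 markers 13.3, 15.6, 17.1 and 16.6 and 20.0 and 18.2, both KO-ND libraries being above all WT-ND libraries in both ratios. The part of Paneth cell number in the defensin difference was not tested.

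**Figure D5:**
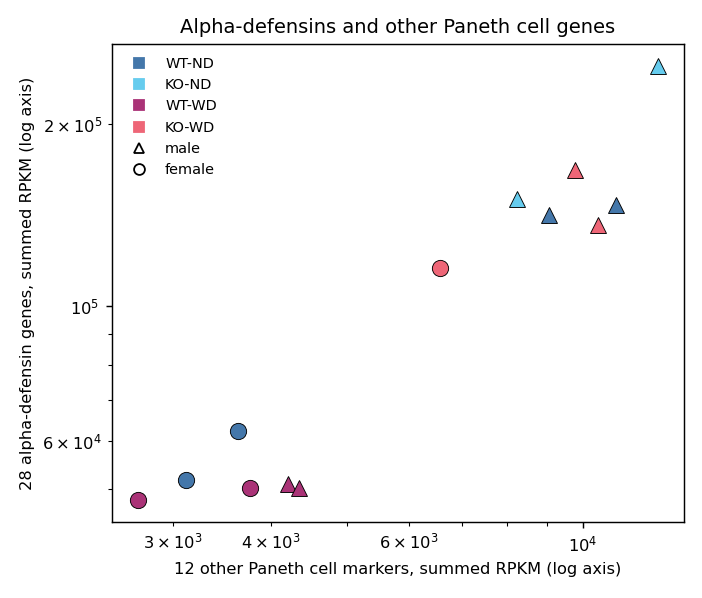
Summed RPKM of the 28 alpha-defensin genes against that of 12 other Paneth cell markers in each of the 13 libraries, on log axes; colour marks the group and shape the sex. The WT-WD libraries and the WT-ND females sit together at the lower left, at 4342 RPKM of markers or less, whereas the other 7 libraries are at 6568 or more.

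Genes for Paneth cell specification, granule formation, bacterial sensing and precursor processing differed little beside the members. Of the 22 tested of 23, 0 had an unadjusted limma p under 0.05 between KO-WD and WT-WD (all genes: 1.41% higher and 1.21% lower). On the higher side 2 were separated, against 1.38% of all genes, and the median was 0.10. On the ND, 1 was higher and 1 lower in KO at an unadjusted limma p under 0.05, against 2.15% and 2.67% of all genes. These were Mmp7, given above, and Ctnnb1, the beta-catenin of Wnt signalling, at -0.54. Between the diets in WT mice, 1 of the 22 was higher in WT-WD and 2 were lower at an unadjusted limma p under 0.05, near the shares of all genes (7.5% higher and 8.09% lower), and none was called. Tcf7, a TCF-family factor, was higher in WT-WD by 0.95 (SE 0.22), and Tcf7l2 and the goblet and Paneth cell factor Spdef were lower, with differences of -0.78 and -0.55. In KO mice, 2 of the 22 were lower on the WD at an unadjusted limma p under 0.05, against 2.94% of all genes, and 0 were higher. Atoh1, needed for secretory cell fate, and the channel gene Kcnn4 were lower, with differences of -0.82 and -0.49. Of the 3 beta-defensin genes tested, Defb37 was lower in KO-WD than in WT-WD, with a difference of -1.42 (SE 0.42), opposite to the alpha-defensins; its levels were low, at 7.04, 6.54, 11.0 and 8.06 RPKM in WT-WD and 2.96, 1.96 and 2.80 in KO-WD.

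Markers of other cell types are given for the same libraries. The proximal enterocyte list (6 genes) summed to 197.8 to 481 RPKM in WT-WD and 41.7 to 145.9 in KO-WD, lower and not overlapping. Of its 5 genes tested, 1 was lower at an unadjusted limma p under 0.05, against 1.21% of all genes, and 1 was lower and separated, against 1.5%. The distal enterocyte list summed to 1687 to 7224 RPKM in WT-WD and 785 to 2924 in KO-WD, with overlap. Of 8 goblet cell markers, 1 was higher and 0 lower in KO-WD at an unadjusted limma p under 0.05, against 1.41% and 1.21% of all genes. Muc2, the main intestinal mucin, was higher in KO-WD by 1.36 and lower in WT-WD than in WT-ND, at -1.38, and several of its values have more than 6 digits. Of 10 enteroendocrine and tuft cell markers, 1 was higher and 1 lower in KO-WD at that level, against the same shares of all genes. The lower was Gcg, the proglucagon gene of L cells, at -1.28, of which 2 WT-WD values have more than 6 digits. Of 9 leukocyte markers, 0 were higher and 1 was lower, Cd68 of macrophages, at -0.73, where 1.21% of all genes were lower, and the list summed to 417 to 887 RPKM in WT-WD and 479 to 963 in KO-WD. Of the other markers at an unadjusted limma p under 0.01, Jchain of plasma cells differed by 1.66 and Plin1 of adipocytes by -2.66 between WT-WD and WT-ND, and the glucose transporter gene Slc2a2 by 2.77 between KO-WD and KO-ND. Neutrophils, whose granules hold alpha-defensins in other species, were at 1.13 to 10.3 RPKM over the 3 listed markers in the table, and the pancreatic acinar list at 4.87 to 40.3. The crypt stem and cycling list (8 genes) spanned 159 to 429 RPKM in WT-WD and 143 to 313 in KO-WD. Between these groups 0 of 8 had an unadjusted limma p under 0.05, where 1.41% of all genes were higher and 1.21% lower. Their part in the defensin difference was not tested.

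Across the 13 libraries, the gene whose level followed the family sum most closely of the 19014 other genes tested was Lyz1 (Pearson r = 0.94, on scaled log2 values). The next were Smim38 (0.86), Mmp7 (0.84), Rplp2 (0.84), Mptx2 (0.84), Gm16136 (0.83), C920006O11Rik (0.83), Rpl37a (0.82), Pde11a (0.82) and Gm38022 (0.82). Lyz1, Mmp7 and Mptx2, a mucosal pentraxin, are on the Paneth cell list, and Rplp2 and Rpl37a encode ribosomal proteins. The libraries share groups, sex and depth, so these values describe likeness of pattern over 13 libraries and carry no test.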

How the data were processed

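RNA-seq of terminal ileum covered 16 labelled samples in 4 groups, taken from the labels. Per the study's methods, the authors used Partek Flow, aligned reads to mm10 (GRCm38) by STAR 2.5.3a and quantified the Ensembl release 91 transcript models. RPKM, the deposited unit, was computed by the authors for each transcript from read number, transcript length and library total; whether the total is that of RPKM or of TPM could not be settled, which leaves ratios between genes of 1 library unaffected. No read counts were used, so the count test of the study was replaced by limma. Between the combined and the single-sample tables the largest difference was 4.99e-08.

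RPKM was summed per gene. Genes at 1 RPKM or more in 2 or more of the 13 libraries were kept. A trimmed mean of log ratios (30% of ratios and 5% of levels trimmed) gave 1 scaling factor per library. Values as log2 of scaled RPKM plus 0.5 were fitted with limma 3.58.1 (R 4.3.3), 4 groups in 1 fit, allowing a mean-variance trend. The call needed both a 2-fold change and an adjusted p (Benjamini-Hochberg, all genes) under 0.01. Permutation tests of single genes were exact and two-sided. The fit was tested on simulated data. The family sum is a description with no p. Coding sequences came from GENCODE M21 (GRCm38) and promoters from RefSeq (GRCm38.p6). Other steps used Python 3.11.15, numpy 2.4.6, pandas 2.3.3, scipy 1.17.1, Biopython 1.88 and matplotlib 3.10.9. On 1 kb, 1 read is worth 0.0692 to 0.139 RPKM. In transcripts of single-transcript genes, 86.5 to 87.8% of values of 0.5 to 200 reads were whole (tolerance 0.02), so whole reads were not recovered.

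The members and gene lists were chosen with earlier results of these data known. Members given in every library are the 10 most abundant, those the paper names and those with an unadjusted p under 0.01 in any comparison; list genes are given by count, plus Lyz1, Mmp7 and those under 0.01, and list genes named at an unadjusted p between 0.01 and 0.05 and AY761185 were chosen after their values were seen. Whether replicate numbers pair the samples was not settled (16 same-number pairs, correlations of deviations from -0.20 to 0.57, 7 above 0.1), and the main fit did not pair them. Alternatives were other scalings, pseudocounts and filters, sex as a covariate, males or females alone, each library left out, a replicate block, quality weights, 2-group fits, all columns, and values of more than 6 digits left out.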

Additional observations from a re-analysis of the deposited data

Results flagged for a closer look

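In groups of 4 libraries, 7 of the 58 values tested (28 genes and the family sum, in WT-ND and WT-WD) had 1 library far from the other 3. There the gap to the nearest, as a ratio to the whole range, was above Dixon's 95% critical value. A single value passes it by chance about 1 time in 20. The 58 values are not independent, since members share reads and libraries, so their count cannot be set against that rate. All ratios were computed on scaled log2 values, whereas the RPKM beside them are as deposited. In WT-ND, Defa30 had a ratio of 0.964, from female 1 at 2498 RPKM against 6647 to 7569. In WT-WD, female 1 was far below the others for 4 members of groups A and C: Defa25 (0.892; 17.1 against 71.7 to 87.6 RPKM), Defa3 (0.843; 1271 against 2765 to 3462), Defa35 (0.899; 122 against 391 to 679) and Defa40 (0.936; 37.7 against 107 and above). Female 2 was the highest for the identical copies Defa36 (0.961) and Defa37 (0.903) after scaling, although as deposited it stood at 886 against 812 to 882 and at 954 against 841 to 938 RPKM.

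After scaling, the family sum differed with the diet by -1.26 in WT males and by 0.49 in WT females on the log2 scale, with 2 libraries of each sex on each diet. As deposited, without scaling, both differences were negative, -1.51 and -0.21. As a share of all RPKM, the females were at 7.62 and 6.33% in WT-ND and at 7.88 and 8.42% in WT-WD. The direction in females thus depends on whether the library total is taken into account. The difference between the sexes was not tested for the sum; for the members it is given in the contrast above, where no adjusted p was below 0.98.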

How the results depend on the processing

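Members called stayed at 0 in 131 of 133 alternative values. The exceptions were KO-WD minus WT-WD with only the 2 groups compared and with sample quality weights, which gave 1 each, Defa27. The family sum in KO-WD minus WT-WD was 1.26 to 1.78 under all alternatives (1.26 in females only, an alternative chosen after seeing the data), and in KO-ND minus WT-ND 0.52 to 1.82, the lowest in males only. WT-WD minus WT-ND was -1.26 in males only and 0.49 in females only (added after seeing the data); the interaction of the family sum was 1.25 in males only against 0.29 with all libraries. KO-WD minus KO-ND ranged from -0.65 to 0.48 over the libraries left out, so its direction rests on which KO-ND male is used. Members at an unadjusted limma p under 0.05 in KO-ND minus WT-ND ranged from 4 (without KO-ND male 1) to 28 (all 16 columns), with 10 without WT-ND female 1 or with sex as a covariate, and 11 in males only; in KO-WD minus WT-WD there were 20 to 28, and 6 of 6 without transcripts holding values of more than 6 digits. In males only, 8 members had an unadjusted p under 0.05 for the interaction. Without scaling, 9 members were lower in WT-WD than in WT-ND at an unadjusted p under 0.05, and 10 did not overlap between KO-WD and KO-ND. With a replicate block, the KO-WD minus WT-WD family sum was 1.56, 28 of 28 members had an unadjusted p under 0.05 and 0 were called. KO-ND minus WT-ND then had 13 of 28. Whether the numbers pair samples was not settled. The family sum could not be given with single values missing, nor the interaction in a fit of 2 groups. With 2 KO-ND libraries, the spread of that group is weakly known.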
